A study of Mus musculus with 6 samples.

Results

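Miat, Meg3, Rian, Mirg, Malat1, Neat1 and Snhg11 are noncoding RNAs found in neurons. These 7 genes were chosen by name out of the 23366 genes of the count table. Miat was selected on its higher level in the knockdown libraries of these same data, so its values are a description and carry no test. The other 6 were chosen as noncoding RNAs that are well known or plentiful in neurons. All 7 have a row in the table, and all 7 passed the filter on low counts that left 15731 genes for testing. RefSeq annotates each of them as a long noncoding RNA.

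The libraries are stranded mRNA sequencing of cerebellar granule neurons, the small glutamatergic neurons of the cerebellar cortex. The cells were cultured from litters of C57BL/6 mice at postnatal day 7. Both groups received lentivirus on the first day in culture, made with the pLKO.1 vector. The control group (n = 3) received the empty vector, which carries no hairpin. The knockdown group (n = 3) received the same vector with 1 short hairpin RNA against Kdm6b, which encodes a demethylase of histone H3. The series calls the replicates biological, but which litter or culture each came from, the day of harvest and which cultures received brain-derived neurotrophic factor are unknown from the sources used. A second hairpin or a hairpin without a target was not analysed here.

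Long noncoding RNAs are transcribed and often spliced like messenger RNAs but are not known to be translated into a protein. Several of them stay in the nucleus, where they hold together protein bodies or bind splicing factors. Others are hosts, whose introns or exons are cut to release microRNAs or small nucleolar RNAs. Miat, also known as Gomafu, is retained in the nuclei of neurons and carries repeats of the splicing branch point word TACTAAC, which the splicing factor SF1 binds. Meg3, Rian and Mirg are expressed from the maternal chromosome in the imprinted Dlk1-Dio3 domain and are thought to come from a single long transcription unit. Malat1 is located in nuclear speckles, and Neat1 is the scaffold of paraspeckles. Snhg11 is a host gene of small nucleolar RNA.

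The 2 stretches of Miat RNA that hold its TACTAAC words are printed below because Miat is the member with the largest difference between the groups and these words distinguish its sequence. Both lie in exon 7 of 7 of transcript Miat-205 in GENCODE M21 (build GRCm38, minus strand). The first covers chr5:112217304-112217465 and the second chr5:112216747-112216817. Capitals mark TACTAAC.
Miat, bases 4926 to 5087 of the transcript: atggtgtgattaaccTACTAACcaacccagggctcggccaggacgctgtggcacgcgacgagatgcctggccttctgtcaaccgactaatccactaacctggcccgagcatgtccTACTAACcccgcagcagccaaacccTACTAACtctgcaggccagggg
Miat, bases 5574 to 5644 of the transcript: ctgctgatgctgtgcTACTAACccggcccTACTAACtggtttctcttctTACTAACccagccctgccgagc

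Each stretch holds 3 of the 6 TACTAAC words in the 9163 bases of this transcript, a density of 0.655 per kb. The word was searched on the transcribed strand, and it occurs at 0.0262 per kb over the longest transcripts of 29758 genes of at least 1000 bases. At least 1 copy was present in 7.67% of those transcripts, and 3 transcripts, Miat among them, held 6 or more. Among the other members, Neat1 held 1 copy, and Meg3, Rian, Mirg, Malat1 and Snhg11 held 0. A match to the word is a description of the sequence and no evidence of binding.

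The promoter of Meg3 is printed because Meg3, Rian and Mirg lie downstream of it on 1 strand. It spans 250 bases before to 50 bases after the start of the gene in RefSeq (build GRCm38.p6, chr12:109540746-109541045, plus strand). Capitals mark the TATA box word TATAAA, which begins 25 bases before the start and overlaps TTTATA, the same word on the other strand.
Meg3 promoter: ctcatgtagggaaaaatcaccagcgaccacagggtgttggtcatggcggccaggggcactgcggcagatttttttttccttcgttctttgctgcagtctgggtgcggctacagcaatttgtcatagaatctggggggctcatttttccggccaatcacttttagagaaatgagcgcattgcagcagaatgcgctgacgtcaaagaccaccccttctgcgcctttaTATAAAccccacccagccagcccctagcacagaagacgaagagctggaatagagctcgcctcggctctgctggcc

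The promoter of Miat is shown for contrast, with each CpG dinucleotide in capitals (RefSeq, GRCm38.p6, chr5:112228899-112229198, minus strand).
Miat promoter: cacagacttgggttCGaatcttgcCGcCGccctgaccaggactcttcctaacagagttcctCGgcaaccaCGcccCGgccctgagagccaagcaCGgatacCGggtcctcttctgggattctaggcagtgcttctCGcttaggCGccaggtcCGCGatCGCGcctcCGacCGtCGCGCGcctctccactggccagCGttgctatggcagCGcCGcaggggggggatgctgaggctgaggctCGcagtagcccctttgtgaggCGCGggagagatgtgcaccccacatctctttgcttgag

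Among the 32851 mouse promoters of this length, 13.6% hold TATAAA on either strand, and Meg3 was the only member with it among the 6 members that have an entry. The Miat promoter holds 25 CpG dinucleotides, and 18.4% of all promoters hold as many. Snhg11 has 21, Meg3 13 at this start, Mirg and Malat1 10 each, and Rian 0, against a median of 7. Neat1 has no entry.

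Kdm6b, the target of the hairpin, was read at 257.3, 145.9 and 170.5 CPM (read counts scaled by library size, with TMM factors) in control replicates 1 to 3 and at 88.8, 63.3 and 79.8 CPM in knockdown replicates 1 to 3. Its 3 knockdown values lay below its 3 control values. The log2 difference was −1.31 (SE 0.25) in the edgeR quasi-likelihood fit without a replicate term (adjusted p = 0.216). With the replicate number as a block it was −1.28 (SE 0.11; edgeR adjusted p = 0.0282). The fit without the block called 1 of 15731 genes, or 0.00636%, at an adjusted p below 0.05, and 1661 genes had an unadjusted p below that value. The fit with the block called 1256 genes, or 7.98%, of which 406 were higher in the knockdown (2.58%) and 850 lower (5.4%). With library totals alone in place of TMM factors the blocked fit called 723 genes higher and 553 lower. Without both libraries of replicate 1 the blocked fit called 0 genes, with 3621 at an unadjusted p below the same value. Total gene counts ran from 50326298 to 88214069 per library.

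Cell type markers bear on every value below, since in bulk libraries fewer cells of a type and less RNA per cell cannot be told apart. The 8 granule neuron markers were all present in every library, none was called by edgeR with or without the block (4 and 0 at an unadjusted p below 0.05, and 0 called by DESeq2 and limma-voom), and they summed to 5708.8, 4198.8 and 3776.6 CPM in control libraries, against 6098.5, 5497.4 and 4050.1 CPM in knockdown libraries. These summed ranges overlap, and the knockdown sum is the higher in 3 of 3 pairs. Replicate 1 has the highest sum in both groups, as it is the highest for Miat and Meg3. Cbln1 weighed most on the rise, at 1502.5, 1035.6 and 964.6 CPM in control libraries, against 2079.7, 1842.5 and 1237.9 CPM in knockdown libraries. Pax6, Zic1 and Zic2 were also higher in 3 of 3 pairs. Neurod1 and Cbln3 were lower in 3 of 3, and Gabra6 and Rbfox3 were mixed. The 9 pericyte and fibroblast markers summed to 11309.8, 18664.5 and 20540.0 CPM in control libraries, against 3732.7, 5135.5 and 9593.7 CPM in knockdown libraries, without overlap. With the block 6 of the 9 were called lower. The collagens Col1a1, Col1a2 and Col3a1 weighed most on these sums. Dcn, Lum and Rgs5 were not called. Dcn and Lum were lower in 3 of 3 pairs. The pericyte marker Rgs5 was higher in 2 of 3, at 5.05, 9.59 and 6.31 CPM in control libraries, against 4.27, 21.3 and 7.93 CPM in knockdown libraries. Microglial markers summed to 43.7 to 90.5 CPM in control libraries, against 9.13 to 49.9 CPM in knockdown libraries. Of these 1 of 8 was called lower (Tmem119), and Cx3cr1, C1qb and Aif1 were at 0 in 1 library each. Tmem119 made up most of the sum in every library but control replicate 1, with 42.7 of the 43.7 CPM in control replicate 2. C1qa, C1qb, C1qc and Csf1r were also lower in 3 of 3 pairs, P2ry12 was higher in 2 of 3, and Cx3cr1 and Aif1 were mixed. Astrocyte markers summed to 892 to 2548 CPM and 431 to 2608 CPM (1 of 6 lower). Oligodendrocyte markers summed to 175 to 1117 CPM and 146 to 848 CPM (1 of 7 lower). Interneuron and Purkinje markers summed to 172 to 409 CPM and 112 to 292 CPM (2 of 6 lower), with the Purkinje marker Pcp2 at 0 or close to it throughout. Both sums were lower in the knockdown in 3 of 3 pairs. Gad1 weighed most on the second sum, at 91.9, 238.5 and 136.5 CPM in control libraries, against 40.6, 127.3 and 98.9 CPM in knockdown libraries. Slc32a1 and Car8 were also lower in 3 of 3 pairs, Gad2 was higher in 3 of 3, and Pvalb and Calb1 were mixed. Endothelial markers summed to 76.2 to 147 CPM and 61.2 to 164 CPM (0 of 5 called), with Cldn5 at 0 in 1 library. The part of these shifts in the level of Miat or of any other member was not tested.

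Miat was read at 54.4, 9.85 and 21.2 CPM in control libraries, against 185.2, 63.6 and 65.9 CPM in knockdown libraries. All 3 knockdown libraries lay above all 3 control libraries, and knockdown replicate 1 stood well above the rest. The counts behind these values were 3948, 492 and 1114 in control libraries, against 16565, 3424 and 4504 in the knockdowns. Controls averaged 28.5 ± 23.1 CPM (SD, n = 3) and knockdowns 104.9 ± 69.6 CPM (SD, n = 3). Within replicate numbers 1, 2 and 3 the log2 difference was 1.77, 2.69 and 1.63, higher in the knockdown in 3 of 3 pairs. Controls differed among themselves by more than any other member's libraries did, and the highest of the 6 libraries was 18.8-fold above the lowest.

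The log2 difference of Miat was 1.88 (SE 0.73) without the block and 2.02 (SE 0.23), or 4.05-fold, with it. The libraries of replicate 1 weighed on its size: without control replicate 1 the unblocked value was 2.75 and without knockdown replicate 1 it was 1.18. Over the 20 alternative settings the log2 difference ran from 1.18 to 2.75, always higher in the knockdown. Among the 15731 genes tested, 28 (0.178%) had a blocked log2 difference at least as large as that of Miat, itself included. Among the 11781 genes averaging 5 CPM or more there were 4 (0.034%). These positions describe how the gene was selected and are not a test.

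**Figure D1:**
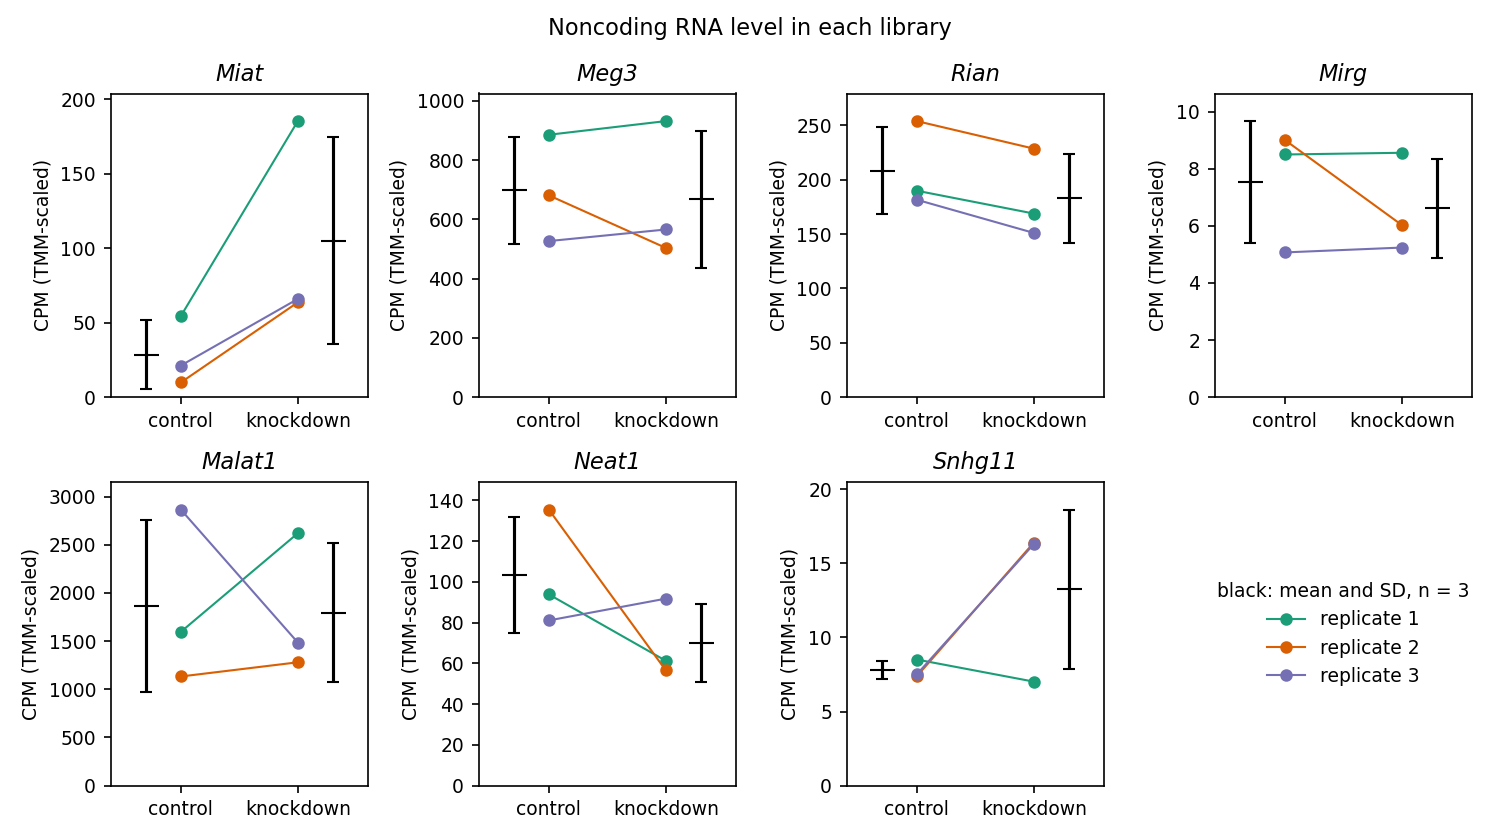
TMM-scaled CPM of each noncoding RNA (vertical axis, linear from 0) in the 3 control and 3 knockdown libraries, with points coloured by replicate number, lines joining libraries of the same number and black marks for the mean and SD (n = 3). Miat runs from 9.85 to 54.4 CPM in control libraries, against 63.6 to 185.2 CPM in knockdown libraries, and for each other gene the groups overlap.

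Miat was the only member of the 7 whose groups did not overlap, a pattern found in 16.7% of all tested genes and, with the knockdown higher, in 9.21%. Its counts were also set against other members within each library, as a description. Miat was chosen for its rise and the groups of those members overlap, so separated ratios add no support. Miat had 6.14, 1.45 and 4.03 counts per 100 Meg3 counts in control libraries, against 19.9, 12.6 and 11.6 in the knockdowns. Per 100 Malat1 counts it had 3.41, 0.869 and 0.741 in control libraries, against 7.07, 4.96 and 4.44 in the knockdowns. Such a ratio does not depend on the scaling of the library, and it does depend on the gene in the denominator.

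None of the other 6 members passed an adjusted p of 0.05 in the edgeR fit without the block (0 of 6, with 0 at an unadjusted p below that value). With the block it was again 0 of 6, with 1 at an unadjusted p below it (Rian). DESeq2 gave 0 of 6 with 1 unadjusted, and limma-voom 0 of 6 with 0 unadjusted. Beside the 7.98% of all genes called with the block, a count of 0 among 6 is no result about these genes.

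Meg3, a maternally expressed RNA linked to growth suppression, was read at 885.8, 681.3 and 526.9 CPM in control libraries, against 931.9, 503.9 and 566.0 CPM in knockdown libraries. Replicate 1 was the highest in both groups, and the groups overlapped over nearly their whole range. The blocked log2 difference was −0.09 (SE 0.14; edgeR adjusted p = 0.688), with the pairs at 0.07, −0.44 and 0.10. Its sign depended on single libraries, being −0.06 without the block with all of them and 0.14 without control replicate 1.

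Rian, a host of small nucleolar RNAs and microRNAs, was read at 189.8, 253.8 and 181.5 CPM in control libraries, against 168.8, 228.5 and 151.0 CPM in knockdown libraries. Replicate 2 was the highest in both groups. The knockdown library was the lower of the pair in 3 of 3 pairs, by log2 differences of −0.17, −0.15 and −0.27, while the groups overlapped. The blocked value was −0.20 (SE 0.07; edgeR adjusted p = 0.122), and without the block it was −0.19 (SE 0.21; adjusted p = 0.775). Of the 6 members without a selection on these values it had the smallest spread between pairs, an SD of 0.06 in log2 against 0.30 to 0.85 for the other 5.

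Mirg, the host of a large microRNA cluster, was read at 8.50, 9.01 and 5.07 CPM in control libraries, against 8.56, 6.03 and 5.24 CPM in knockdown libraries. Replicate 3 was the lowest in both groups. The blocked log2 difference was −0.17 (SE 0.17; edgeR adjusted p = 0.522), with pairs at 0.01, −0.58 and 0.05, and it turned to 0.01 without replicate 2.

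Mirg kept an almost fixed proportion to Meg3. There were 0.959, 1.32 and 0.962 Mirg counts per 100 Meg3 counts in control libraries, against 0.919, 1.20 and 0.926 in the knockdowns, so that the highest library was 1.44-fold above the lowest. Replicate 2 gave the high value in both groups. The mean ratio was 1.08 ± 0.209 (SD, n = 3) in control libraries, against 1.01 ± 0.159 (SD, n = 3) in the knockdowns, a gap smaller than either SD. Rian was less even against Meg3, at 21.4, 37.3 and 34.4 counts per 100 in control libraries, against 18.1, 45.3 and 26.7 in the knockdowns, a 2.5-fold range with overlapping groups. By the root-mean-square difference of log2 CPM, each gene centred on its mean, Mirg was in place 327 of 11780 genes ordered by closeness to Meg3 (0.20), so other genes kept a steadier proportion to it.

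**Figure D2:**
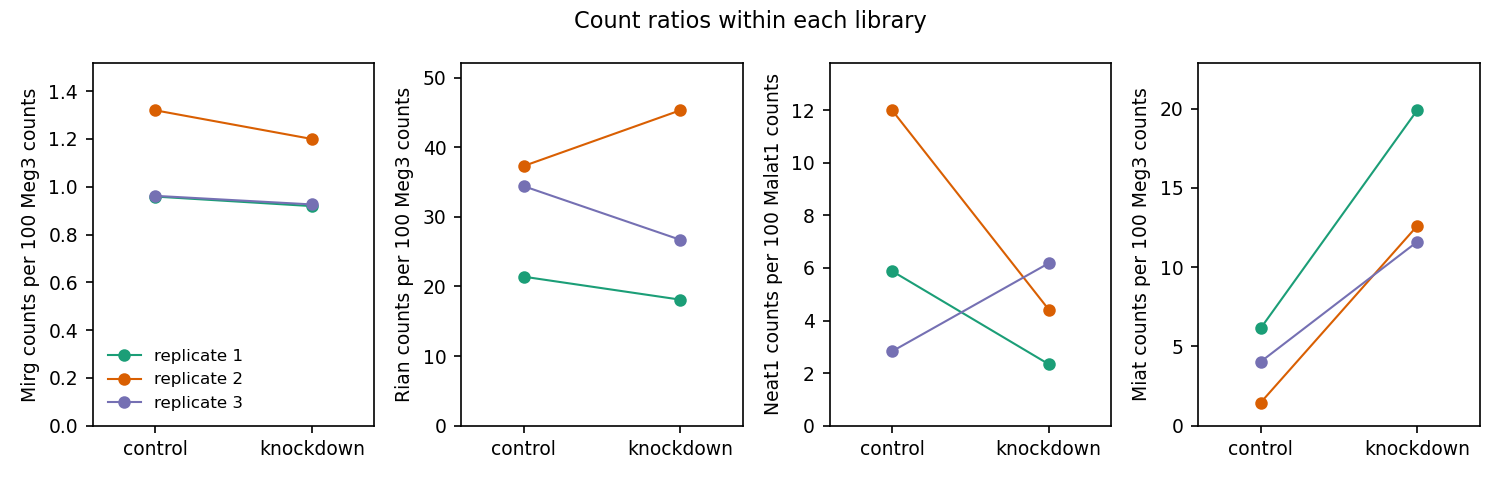
Counts of 1 noncoding RNA per 100 counts of another (vertical axes) in each of the 3 control and 3 knockdown libraries, coloured by replicate number. Mirg against Meg3 stays between 0.919 and 1.32, while Miat against Meg3 runs from 1.45 to 6.14 in control libraries, against 11.6 to 19.9 in the knockdowns.

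Between the start of Meg3 and the end of Mirg, a region of 208.5 kb (chr12:109540996-109749458, RefSeq GRCm38.p6), the count table has rows for 55 microRNA hairpins and 7 small nucleolar RNAs. A library of polyadenylated RNA captures hairpin sequence only within longer transcripts, so these rows are no measure of mature microRNA. The 55 hairpin rows summed to 125, 129 and 99 counts in control libraries, against 209, 97 and 97 in the knockdowns, and 10 rows were 0 in every library. Of the 5 that were tested 4 lie inside a member, and of these edgeR called 0 with or without the block, as did DESeq2 and limma-voom, with 0 at an unadjusted p below 0.05. The 3 hairpin rows with the most counts were Mir3072, Mir377 and Mir434, and the mature sequences of their arms are given to show what the region encodes (RefSeq, GRCm38.p6). Capitals mark the seed, bases 2 to 8 from the 5′ end.
miR-3072-5p: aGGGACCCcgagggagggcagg
miR-3072-3p: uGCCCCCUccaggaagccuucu
miR-377-5p: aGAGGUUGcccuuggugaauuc
miR-377-3p: aUCACACAaaggcaacuuuugu
miR-434-5p: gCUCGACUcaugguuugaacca
miR-434-3p: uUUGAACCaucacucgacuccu

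No seed is shared among these 6 arms. Mir3072 had 23, 14 and 11 counts in control libraries, against 24, 5 and 10 in the knockdowns. Mir377 had 16, 19 and 5 in control libraries, against 20, 13 and 9 in the knockdowns. The small nucleolar RNA row AF357359, inside Rian, held most of the reads of its kind. It was read at 2.09, 2.02 and 1.71 CPM in control libraries, against 1.43, 1.45 and 1.58 CPM in knockdown libraries, lower in 3 of 3 pairs with groups that did not overlap. Its blocked log2 difference was −0.38 (SE 0.20; edgeR adjusted p = 0.246).

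The coding genes Dlk1, Rtl1 and Dio3 of the same domain are expressed from the paternal chromosome. Dlk1, a Notch ligand homologue that lies 77.7 kb before Meg3, was read at 1.05, 1.12 and 4.95 CPM in control libraries, against 0.503, 0.798 and 4.26 CPM in knockdown libraries. The knockdown library was lower in each pair, and replicate 3 stood above the others in both groups. Dio3, the deiodinase that inactivates thyroid hormone, had a blocked log2 difference of −0.97 (SE 0.40; edgeR adjusted p = 0.166) at no more than 2.50 CPM. Rtl1, which overlaps Meg3 and Rian in RefSeq, stayed at or below 0.0585 CPM and was not tested. The list drawn up for the domain (Begain, Dlk1, Rtl1, B830012L14Rik, Dio3 and Dio3os) had 4 tested genes, of which 0 were called without the block and 0 with it, with 1 at an unadjusted p below 0.05 in the blocked edgeR fit. DESeq2 and limma-voom also called 0 of the 4. Beside the 7.98% of all genes called with the block, a count of 0 among 4 is no result about the list. Their median blocked log2 difference was −0.61, against 0.02 over all genes tested. Begain stood at −0.65 and Dlk1 at −0.56, while Dio3os went the other way at 0.38. Dlk1, Dio3 and Dio3os did not exceed 4.95 CPM in any library.

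Malat1, the most plentiful member also per length, was read at 1596.0, 1133.0 and 2864.6 CPM in control libraries, against 2619.2, 1280.2 and 1485.5 CPM in knockdown libraries. The highest control and the highest knockdown came from different replicate numbers. Controls averaged 1864.5 ± 896.5 CPM (SD, n = 3) and knockdowns 1794.9 ± 721.1 CPM (SD, n = 3), so the spread within a group was far larger than the gap between them. The pairs disagreed, at log2 differences of 0.71, 0.18 and −0.95. The blocked value was −0.01 (SE 0.34; edgeR adjusted p = 0.982). It turned to 0.44 without replicate 3, 0.05 with library totals alone in the blocked fit, and 0.38 without control replicate 3 in the unblocked one, so no direction can be given.

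Neat1 lies beside Malat1, 22.0 kb away on the same strand, and was read at 93.9, 135.5 and 81.1 CPM in control libraries, against 61.3, 56.6 and 91.8 CPM in knockdown libraries. Control replicate 2 was the highest, and knockdown replicate 3 lay among the controls. Controls averaged 103.5 ± 28.5 CPM (SD, n = 3) and knockdowns 69.9 ± 19.1 CPM (SD, n = 3). The blocked log2 difference was −0.57 (SE 0.28; edgeR adjusted p = 0.221), with pairs at −0.62, −1.26 and 0.18. Leaving out both libraries of a replicate number moved it either way. It was −0.94 (SE 0.18; edgeR adjusted p = 0.0482) without replicate 3, the pair in which the knockdown was higher, and −0.24 (SE 0.20; adjusted p = 0.517) without replicate 2.

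Malat1 and Neat1 did not move in step. Neat1 had 5.88, 12.0 and 2.83 counts per 100 Malat1 counts in control libraries, against 2.34, 4.42 and 6.18 in the knockdowns, a 5.12-fold range with overlapping groups. Frmd8, 5.49 kb from Neat1, was lower in each of 3 pairs, at −0.41 in log2 (SE 0.09; edgeR adjusted p = 0.0565 with the block), and its groups overlapped.

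Snhg11 was read at 8.51, 7.38 and 7.51 CPM in control libraries, against 7.02, 16.4 and 16.3 CPM in knockdown libraries. Knockdown replicates 2 and 3 lay above all controls, and knockdown replicate 1 lay below all of them. Controls averaged 7.80 ± 0.617 CPM (SD, n = 3) and knockdowns 13.2 ± 5.39 CPM (SD, n = 3), and the blocked log2 difference was 0.67 (SE 0.33; edgeR adjusted p = 0.216). Without replicate 1 it was 1.14 (adjusted p = 0.0985 in edgeR), without replicate 2 it was 0.40 and without replicate 3 it was 0.43. GENCODE labels Snhg11 protein coding. Its neighbour Ralgapb, a subunit of a GTPase-activating complex, had all knockdown values (110.2 to 126.1 CPM) below all control values (133.6 to 159.4 CPM), with a blocked log2 difference of −0.31 (SE 0.06; edgeR adjusted p = 0.0522). Lbp, on its other side, had overlapping groups at −0.46 (SE 0.30; adjusted p = 0.326 with the block).

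No coding gene beside Miat was called. Cryba4, a crystallin gene 17.5 kb away, had at most 0.0413 CPM and was not tested. Mn1, a transcriptional coregulator 756.2 kb away on the other side, had a blocked log2 difference of −0.20 (SE 0.08; edgeR adjusted p = 0.168).

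**Figure D3:**
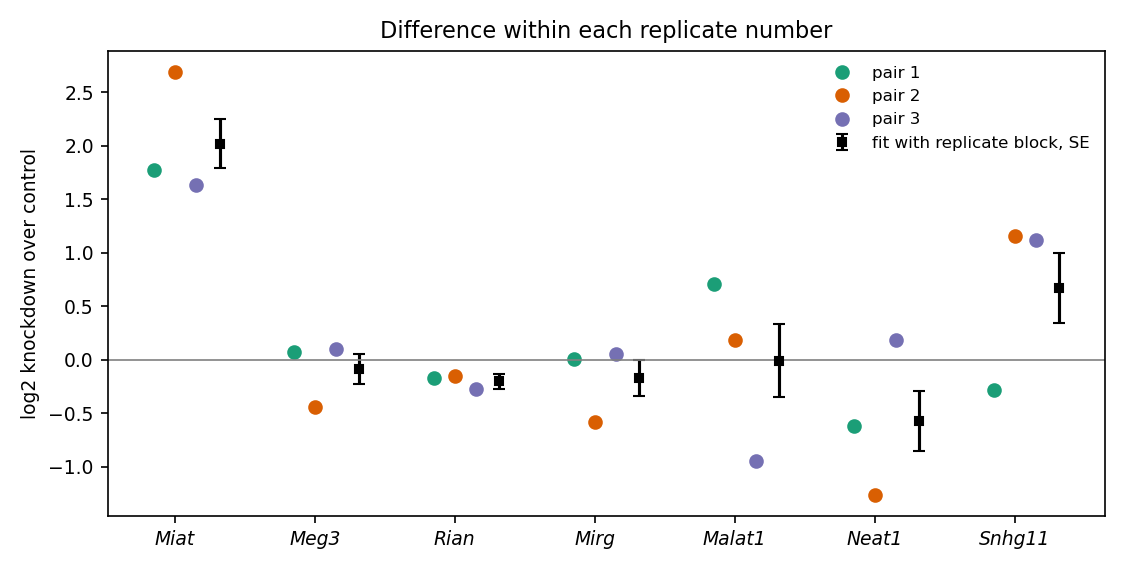
Log2 ratio of knockdown to control CPM (vertical axis) within replicate numbers 1, 2 and 3 for each of the 7 genes. The 3 points of Miat lie between 1.63 and 2.69 and those of Rian between −0.27 and −0.15, while those of Malat1 spread from −0.95 to 0.71.

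Levels of different genes can be set side by side only per length. Even then the libraries of polyadenylated RNA must capture the genes alike, which was not tested. As CPM per kb of the longest GENCODE transcript, the control means were 267.0 for Malat1, 48.0 for Meg3, 25.8 for Rian, 4.98 for Neat1, 3.11 for Miat, 1.97 for Mirg and 1.33 for Snhg11. The ranges of the 3 highest did not overlap in either group, so the order Malat1, Meg3, Rian held in every library. In the controls Neat1 (3.90 to 6.53 CPM per kb) and Miat (1.07 to 5.93) overlapped, Miat overlapped Mirg (1.33 to 2.36), and Mirg overlapped Snhg11 (1.26 to 1.45). In the knockdowns Miat, at 6.94 to 20.2 CPM per kb, lay above Neat1, at 2.72 to 4.42, and overlapped Rian, at 18.7 to 28.2. Snhg11, at 1.20 to 2.80 in the knockdowns, overlapped both Neat1 and Mirg. Which transcript models the authors counted is unknown from the sources used, and a shorter Neat1 model than the 20771 bases used would raise its value. Per kb of all annotated exons joined, Rian had means of 11.4 in the controls and 10.0 in the knockdowns, against 3.06 and 11.3 for Miat.

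The word abundant fits only some of the group. Of the 14748 tested genes matched to a length (93.8%), 0.753% had a mean CPM per kb at or above that of Malat1 and 8.54% that of Meg3, while Rian held place 2805. The median over genes was 7.29 CPM per kb, and Miat lay below it in the control mean (3.11) and above it in the knockdown mean (11.4). Neat1 (62.4%), Mirg (74.6%) and Snhg11 (75.1%) were below the median.

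RefSeq annotates 565 of the tested rows as long noncoding RNA. By the blocked log2 difference, 2 of the 565 were at or above Miat, itself included, and of the 114 averaging 5 CPM or more only Miat was. Outside the 7 members, 558 rows were tested, of which 7 were called higher with the block (1.25%) and 4 lower (0.717%). Over all genes the shares were 2.58% and 5.4%. The median blocked log2 difference of the 558 rows was 0.21, against 0.02 over all genes. Their groups did not overlap with the knockdown higher in 66 rows and lower in 14, against 1449 and 1171 of all 15731 genes. These differences from all genes were not tested. The 4 rows called lower were Tug1, Gm10336, Gm9899 and 1700012D01Rik, and the 7 called higher ran from 0.42 (4933431E20Rik) to 1.21 (1700086L19Rik) in log2. This set was matched by symbol and is incomplete. It leaves out 1700020I14Rik, a listed long noncoding RNA that was also called lower.

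Of the listed long noncoding RNAs other than the members, 23 were tested, with 0 called without the block (2 at an unadjusted p below 0.05 in edgeR, 3 in limma-voom with 0 called, and 1 called by DESeq2). With the block 0 were called higher and 2 lower, and the list's median log2 difference was 0.15. Tug1 was read at 175.4, 186.5 and 174.1 CPM in control libraries, against 129.0, 136.2 and 133.3 CPM in knockdown libraries. Tug1 fell by 0.43 on the log2 scale with the block (SE 0.06; edgeR adjusted p = 0.0362), with little spread inside either group. 1700020I14Rik was read at 263.2, 202.2 and 183.1 CPM in control libraries, against 160.0, 139.2 and 92.8 CPM in knockdown libraries. 1700020I14Rik fell by 0.75 on the log2 scale with the block (SE 0.10; edgeR adjusted p = 0.0334), and its groups did not overlap. Without the block the edgeR adjusted p was 0.265 for Tug1 and 0.403 for 1700020I14Rik. In limma-voom these were 0.275 and 0.405, and in DESeq2, which called Tug1, they were 0.000185 and 0.115. H19, also an imprinted gene, was not called but differed more. It was read at 840.5, 946.3 and 1455.3 CPM in control libraries, against 181.2, 56.2 and 621.8 CPM in knockdown libraries. Its groups did not overlap, and its blocked log2 difference was −2.48 (SE 0.59, edgeR adjusted p = 0.0657 with the block, 0.486 without).

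Imprinted genes outside the Dlk1-Dio3 domain gave 0 calls higher and 3 lower with the block among 26 tested, at a median of −0.01, beside 5.4% of all genes called lower. Without the block 0 were called, with 5 at an unadjusted p below 0.05 in edgeR, 2 called by DESeq2 and 0 by limma-voom. Cdkn1c, an inhibitor of cyclin-dependent kinases, was read at 65.3, 53.0 and 57.1 CPM in control libraries, against 21.7, 23.9 and 39.0 CPM in knockdown libraries. Cdkn1c fell by 1.09 on the log2 scale with the block (SE 0.21; edgeR adjusted p = 0.0483 with it, 0.282 without), and its groups did not overlap. Plagl1, a zinc finger transcription factor, fell by 0.95 (SE 0.13; edgeR adjusted p = 0.0334 with the block, 0.471 without) with overlapping groups. Grb10, an adaptor of growth factor receptors, fell by 0.60 (SE 0.11; edgeR adjusted p = 0.0484 with the block, 0.739 without), and its control values alone ran from 185.1 to 642.8 CPM.

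Proteins reported to bind Miat RNA were represented by 4 tested genes, with 1 called higher with the block, 0 lower and 0 called without it (1 at an unadjusted p below 0.05 in edgeR, DESeq2 and limma-voom each, of which DESeq2 and limma-voom also called 0). Celf3, a splicing regulator of neurons, was read at 66.3, 46.8 and 44.0 CPM in control libraries, against 103.0, 70.3 and 68.8 CPM in knockdown libraries. The groups did not overlap, and replicate 1 was the highest in both, as it was for Miat. Celf3 rose by 0.62 in log2 with the block (SE 0.06; edgeR adjusted p = 0.0282 with it, 0.444 without), with pairs at 0.64, 0.59 and 0.64. With the block Sf1 stood at 0.08, Srsf1 at 0.04 and Qk at −0.39, and the median of the 4 genes was 0.06. Over all genes 2.58% were called higher with the block. A count of 1 in 4, which rests on Celf3 alone, is no result about the list.

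Beside the 7.98% of all genes called with the block, the counts for proteins of nuclear bodies are no result about these lists. Of 25 tested paraspeckle proteins 0 were called with or without the block, with 7 and 4 at an unadjusted p below 0.05, and DESeq2 and limma-voom also called 0. Pspc1, a core paraspeckle protein, was the closest to the threshold, at 45.3, 38.5 and 43.1 CPM in control libraries, against 71.9, 58.0 and 51.4 CPM in knockdown libraries. Its groups did not overlap, and its blocked log2 difference was 0.50 (SE 0.10; edgeR adjusted p = 0.0543). Of 26 tested nuclear speckle proteins 0 were called with or without the block, with 3 and 1 at an unadjusted p below 0.05, and again DESeq2 and limma-voom called 0. Tra2a, a splicing activator, had the smallest p there, at 0.37 in log2 (SE 0.08; edgeR adjusted p = 0.0575 with the block). The list medians were 0.07 and 0.05.

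The ends of Malat1 and Neat1 are cut by RNase P, and a list of 15 tested genes for such processing gave 1 call higher with the block, 0 lower and 0 without it (0 at an unadjusted p below 0.05 in edgeR or limma-voom, 1 in DESeq2, which called 0), at a median of 0.09. A count of 1 in 15 is near the 7.98% called over all genes. The gene was Rpp25, a subunit of RNase P, at 2.49, 0.38 and 0.61 CPM in control libraries, against 5.69, 0.909 and 1.57 CPM in knockdown libraries. Rpp25 rose by 1.26 in log2 with the block (SE 0.19; edgeR adjusted p = 0.0367 with it, 0.669 without), and its groups overlapped, with replicate 1 high in both. Of 13 tested host genes of small nucleolar RNAs other than Snhg11, 0 were called with or without the block (2 and 0 at an unadjusted p below 0.05, and 0 called by DESeq2 and limma-voom), at a median of 0.21. Snhg8 had the smallest p, at 0.37 in log2 (SE 0.12, edgeR adjusted p = 0.114 with the block). The 7 genes called on these lists kept their sign in all 20 alternatives, apart from Rpp25 at a mean of at least 5 CPM, where it was not tested. Some values nearly vanished when 1 library was left out of the unblocked fit: Rpp25 went from 1.22 to 0.08 without knockdown replicate 1, and Grb10 from −0.60 to −0.22 without control replicate 3 and −0.26 without knockdown replicate 1. In the blocked fit 0 of the 7 stayed below an adjusted p of 0.05 without replicate 1, 0 without replicate 2 and 4 without replicate 3 (edgeR). With library totals alone in the blocked fit 4 of the 7 stayed below it, and Tug1 (adjusted p = 0.0653), Cdkn1c (0.051) and Grb10 (0.0614) did not. The balance over the lists turned as it did over all genes, from 2 higher and 5 lower with TMM factors to 9 higher and 3 lower with library totals alone.

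The genes whose pattern over the 6 libraries was closest to that of Miat were found by the root-mean-square difference of centred log2 CPM among 11780 genes averaging 5 CPM or more. They were B930025P03Rik (0.24), the homeobox factor Barhl1 (0.29), the zinc finger factor Prdm8 (0.40), the growth factor Fgf5 (0.40) and the zinc finger factor Insm1 (0.41). Barhl1 was read at 74.2, 17.3 and 47.3 CPM in control libraries, against 234.2, 79.7 and 97.9 CPM in knockdown libraries. B930025P03Rik was read at 23.2, 2.76 and 8.92 CPM in control libraries, against 57.6, 25.9 and 26.6 CPM in knockdown libraries. In both, as in Miat, control replicate 2 was the lowest library and knockdown replicate 1 the highest. The likeness is over 6 libraries that share the same groups, depths and scaling, so it is a description.

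**Figure D4:**
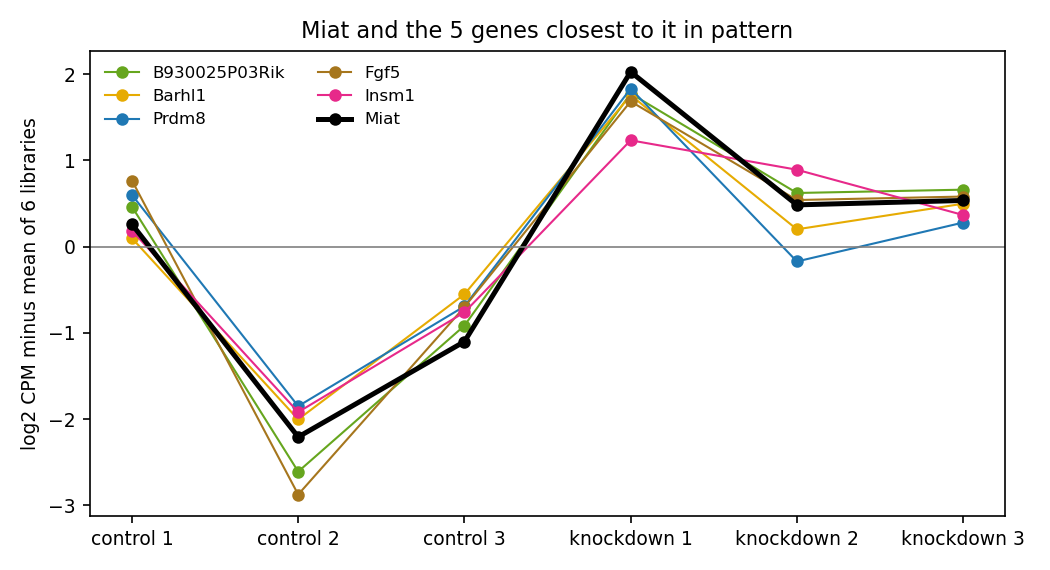
Log2 CPM minus its mean over the 6 libraries (vertical axis) for Miat and the 5 genes closest to it in pattern, in each library (horizontal axis); lines join the points of a gene and mark no order. Every gene has its lowest point in control replicate 2 and its highest in knockdown replicate 1.

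The same measure gave the genes closest to the other members. For Meg3 they were Trpc2 (0.08), Vash1 (0.08) and Slmo1 (0.09). For Rian they were Ddi2 (0.06), Anks6 (0.06) and Herpud1 (0.08), the last a protein of the endoplasmic reticulum stress response. For Mirg they were Amigo1, Pacsin1 and Pde10a (0.10 each), and for Neat1 AW011738 (0.12), Lbp (0.13) and Uba7 (0.13). Malat1 was closest to Vmn1r58 (0.26), Syne1 (0.27) and Slc4a10 (0.27), and Snhg11 to Ajap1 (0.15), 4930570G19Rik (0.23) and Gsta4 (0.26).

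Overlapping gene models set a further limit. In GENCODE the exons of Miat, Meg3 and Malat1 each overlap 1 gene on the opposite strand, none of which has a row in the table. Whether counting used the strand is unknown from the sources used, so reads of such antisense RNA cannot be told apart from reads of the member. Exons of Mirg overlap 9 microRNA rows, those of Rian 3 rows and those of Meg3 2 rows on the same strand, whose reads may be missing from the member.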

How the data were processed

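Stranded mRNA libraries with 50 bp single-end reads were made from 6 cultures, per the labels' protocols. The authors deposited raw read counts per gene as whole numbers. The submitters' processing notes name build mm9 and the tools HTSeq, TopHat2, Trimmomatic, DESeq2 and edgeR. Versions, annotation and strand setting are unknown from the sources used. Rows that name no gene were left out: multiply aligned reads were 16.0% to 19.3% of the total, reads outside genes 12.1% to 15.0% and ambiguous reads 0.406% to 0.509%. Reads of repeats are thus missing.

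Low counts were removed by filterByExpr (minimum count 10, total 15), and the rest scaled with TMM and tested with the quasi-likelihood F test of edgeR 4.0.16 (R 4.3.3), adjusted over 15731 genes by the Benjamini-Hochberg method at 0.05. Standard errors were taken as |log2 fold change| over the root of F. Both fits were tested on simulated data. The simulated counts carried the replicate differences and spread estimated by a blocked fit of these data, so they cannot show which fit is the better. Unchanged genes made up a larger share of the blocked fit's calls than the threshold of 0.05 allows, and the unblocked fit missed most changed genes. Adjusted p-values of the blocked fit may thus be too small. Deviations from group means of log2(CPM + 1) correlated across genes at 0.828, 0.659 and 0.773 for libraries of the same number and at −0.573 to 0.0577 for others. The numbers therefore pair the samples, by this check of the data rather than by a label, and a blocked fit (replicate number as a term) is printed beside the main one. Replicates of a group were further apart than counting error allows (chi-square per degree of freedom 174 to 381). P-values measure only the spread between these samples.

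The members and lists were chosen with earlier results of these data known. Named genes were the members, Kdm6b, up to 3 called genes per list or else the one with the smallest p, flanking coding genes, rows inside a member, and the genes closest in pattern (5 for Miat, 3 for the others). Some genes that this rule picks are left out of the text. Long noncoding RNA rows, hairpins and cell type markers named beyond this were chosen after their values were seen, and all tested proteins reported to bind Miat RNA are named. GENCODE M21 and RefSeq tables (GRCm38) were matched by symbol only, since the files' build differs. Alternatives were RLE, upper-quartile or no scaling factors, no filter, a mean of at least 5 CPM, DESeq2 1.42.0, limma-voom (limma 3.58.1), the block, and leaving out libraries or pairs.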

Additional observations from a re-analysis of the deposited data

How the results depend on the processing

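Without the block, 1 gene was called, against 0 with library totals alone, 568 with DESeq2 and 0 to 0 when each library was left out in turn. The replicate block called 1256, or 1276 with library totals alone, 1342 with RLE factors and 1350 with upper-quartile factors. Without replicate 1, 2 or 3 the blocked fit called 0, 53 and 1272. List members called numbered 0 without the block, 3 with DESeq2, 7 with the replicate block, 12 (9 higher, 3 lower) with the block and library totals alone, 8 with the block and RLE or upper-quartile factors, and 0 to 8 when libraries or pairs were left out. Miat, at 1.88 without the block, ran from 1.18 (without knockdown replicate 1) to 2.75 (without control replicate 1). Meg3 turned higher without control replicate 1 (0.14), knockdown replicate 2 (0.09), knockdown replicate 3 (0.04) or, in the blocked fit, replicate 2 (0.07), with a leave-one-out range of −0.39 to 0.14. Mirg turned to 0.01 in the blocked fit without replicate 2. Malat1 turned to 0.03 with library totals alone, to 0.05 with the block and library totals, to 0.38 without control replicate 3, to 0.12 without knockdown replicate 2, to 0.06 without knockdown replicate 3 and to 0.44 in the blocked fit without replicate 3, with a leave-one-out range of −0.43 to 0.44. Neat1 passed the threshold only in the blocked fit without replicate 3 (−0.94, adjusted p = 0.0482 in edgeR). For all of these the cause was not tested, apart from fewer libraries where some were left out. Rian (−0.40 to −0.02), Neat1 (−0.94 to −0.24) and Snhg11 (0.40 to 1.14) kept their direction over the 20 alternatives. With a lone pair or arm reduced, the remaining libraries are assumed to vary alike. Library totals alone moved the median of all genes from 0.02 to 0.09 in log2. Depth was low for the hairpin rows, which together held 97 to 209 counts per library.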
